A study of Mus musculus with 8 samples.

Results

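The respiratory chain genes described here are the structural genes of complexes II to V and cytochrome c in mouse liver. They were taken from the table of 22013 genes by symbol: Sdha to Sdhd, Cyc1, Cycs, and every symbol beginning with Uqcr, Atp5, mt-Co, mt-Cytb or mt-Atp, or with Cox and a digit from 4 to 8. The rule found 58 genes, of which 1 has the symbol of a pseudogene (Cox5b-ps), though the annotation lists it as protein-coding, and 1 is a second identifier of Atp5po with no counts. After a filter on low counts 49 were tested, 6 of them encoded by mitochondrial DNA (mtDNA) and 43 by the nucleus.

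Liver mRNA was sequenced in 8 libraries, 4 titled as control and 4 titled Rem, the study's short form for resmetirom. Resmetirom is a small-molecule agonist of the thyroid hormone receptor beta. In the study's model of metabolic dysfunction-associated steatohepatitis, mice ate a diet of fructose, palmitate and cholesterol for 12 weeks, and from the end of week 4 the drug group had 8 weeks of intraperitoneal resmetirom (5 mg/kg/day). The vehicle was 0.5% carboxymethyl cellulose-sodium and 0.4% Tween-80. Whether the control mice ate this diet and received this vehicle, and the strain, sex and age of the animals, are not given in the labels. The labels do not tie libraries to single animals either, and the p-values rest on library-to-library spread, which may be technical. The libraries held 16787561 to 19887539 counts and 13902 to 14442 genes with a count.

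Complexes II to IV pass electrons to oxygen, and complex V, the ATP synthase, uses the proton gradient built by complexes I, III and IV to make ATP. Complex II, which is also the succinate dehydrogenase of the citric acid cycle, is encoded wholly in the nucleus. Complexes III, IV and V are mosaics, with a few core subunits translated inside the mitochondrion from mtDNA and the rest imported. Thyroid hormone is a classical stimulus of mitochondrial respiration in liver.

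The 4 promoter windows below were picked among windows that hold a match, after levels and matches were known, and stand for genes described further on: Uqcrc1, a core subunit gene of complex III whose levels overlapped between the groups, Uqcrh and Uqcr11, small accessory subunit genes of complex III called higher with resmetirom on the TMM scale (a library scaling) but not with library sizes alone or TPM, and Atp5pd, a stalk subunit gene of the ATP synthase whose window holds both motifs. Each runs from 250 bases before to 50 after the start of transcription on the gene's strand and comes from RefSeq on GRCm38.p6. Capitals mark matches to GCGCA, any base and GCGC in a row, a consensus of nuclear respiratory factor NRF1, or to CCGGAAG, a core shared by ETS factors such as GABP, on either strand. The windows lie at chr9:108936398-108936697 on the plus strand (Uqcrc1) and, on the minus strand, at chr4:116075021-116075320 (Uqcrh), chr10:80406772-80407071 (Uqcr11) and chr11:115419870-115420169 (Atp5pd).
Uqcrc1: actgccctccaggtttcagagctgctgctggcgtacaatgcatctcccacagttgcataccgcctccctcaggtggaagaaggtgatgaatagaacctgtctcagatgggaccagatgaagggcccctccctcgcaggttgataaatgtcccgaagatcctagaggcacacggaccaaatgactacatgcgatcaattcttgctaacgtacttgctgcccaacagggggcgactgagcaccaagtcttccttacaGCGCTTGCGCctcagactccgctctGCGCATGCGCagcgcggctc
Uqcrh: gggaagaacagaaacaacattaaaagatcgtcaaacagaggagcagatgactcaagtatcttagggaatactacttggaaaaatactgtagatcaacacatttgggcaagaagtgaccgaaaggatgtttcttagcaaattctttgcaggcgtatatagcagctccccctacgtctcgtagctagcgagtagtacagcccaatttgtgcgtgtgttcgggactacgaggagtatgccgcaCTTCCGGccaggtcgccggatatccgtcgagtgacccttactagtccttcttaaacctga
Uqcr11: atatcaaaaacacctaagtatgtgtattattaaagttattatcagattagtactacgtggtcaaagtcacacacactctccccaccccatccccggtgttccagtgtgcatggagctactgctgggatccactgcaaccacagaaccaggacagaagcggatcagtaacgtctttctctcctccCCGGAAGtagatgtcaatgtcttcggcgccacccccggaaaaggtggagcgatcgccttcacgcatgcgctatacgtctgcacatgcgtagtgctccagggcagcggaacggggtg
Atp5pd: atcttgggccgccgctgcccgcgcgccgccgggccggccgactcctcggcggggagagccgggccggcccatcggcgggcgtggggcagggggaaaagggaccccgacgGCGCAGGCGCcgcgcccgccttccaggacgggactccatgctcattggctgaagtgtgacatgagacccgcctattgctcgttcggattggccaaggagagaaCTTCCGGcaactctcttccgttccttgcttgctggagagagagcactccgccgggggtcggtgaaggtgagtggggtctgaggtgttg
The Uqcrc1 window holds 2 NRF1 matches and 0 ETS matches, the Uqcrh and Uqcr11 windows hold 0 and 1, and the Atp5pd window holds 1 of each. These windows do not show a split of complex III by motif: only 5 of its genes have a window in the table, and those of Uqcrfs1, a redox subunit gene, and Uqcr10, an accessory one, hold neither motif.

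On the main scale (TMM, a scaling that assumes most genes do not differ between groups), 5 of 10 tested genes of complex III, 7 of 14 of complex IV and 8 of 20 of complex V were called higher in the resmetirom group, and no gene of complex II was called. Of the 49 tested genes 20 were called higher and 0 lower (edgeR quasi-likelihood test, adjusted p under 0.05 over all 12207 tested genes), or 40.8%, against a background of 2.60% of all tested genes called higher and 1.99% called lower. None of the 20 was called higher when counts were scaled by library size alone (background 1.24%) or on log2(TPM + 1) (background 1.04%), where TPM is the deposited abundance per transcript length. The median log2 fold change, resmetirom minus control, was 0.32 over the 49 genes and -0.0043 over all tested genes. In 29 of the 49, all 4 resmetirom libraries lay above all 4 control libraries, and in 0 they lay below, which held for 6.32% and 5.50% of all tested genes. The count of 20 depended on single libraries: it was 9, 13 and 5 without control replicates 2, 3 and 4, and 11, 12 and 6 without resmetirom replicates 1, 3 and 4. It was 19 without control replicate 1 and 21 without resmetirom replicate 2. Over all tested genes 317 were called higher with all 8 libraries and 182 to 313 with 1 left out. The lowest were 182 without control replicate 4 and 208 without resmetirom replicate 4, where the medians over these respiratory genes were 0.33 and 0.28. DESeq2 called 27 higher and 0 lower (backgrounds 4.36% and 3.37%), all 20 among them.

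The scale sets the size of these differences and, for part of the genes, their sign. Of the 49 genes 45 lay above 0 on the TMM scale, 28 with library sizes alone and 14 on both TPM scales. With library sizes alone the median of all tested genes was -0.31, on log2(TPM + 1) it was -0.41, and on log2(TPM + 0.1) it was -0.50, so that a gene at the median appears lower with resmetirom. The medians of the 49 genes were 0.019, -0.18 and -0.18 on these scales. Measured from the median of all genes they lay 0.33 higher on the TMM scale, 0.33 with library sizes alone, and 0.23 and 0.32 on the 2 TPM scales. The genes called lower were Sdha, Sdhb and Uqcrc2 with library sizes alone (background 16.1%), and these 3 with Sdhc, Cyc1, Uqcrc1 and Uqcrfs1 on both TPM scales, so a total of 7 of 49 against a background of 38.0% of tested genes called lower on log2(TPM + 1). In the authors' deposited table, 0 of the 58 genes had an FDR under 0.05 with a higher level and 7 with a lower one, beside 0.863% and 23.6% of the 22013 genes. TMM gave factors of 1.06 to 1.16 for 5 libraries, the controls and the first resmetirom replicate, and of 0.804 to 0.879 for the other 3. The libraries do not show which scale reflects RNA per cell, and in bulk liver fewer cells of a type and less RNA per cell cannot be told apart either.

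**Figure D1:**
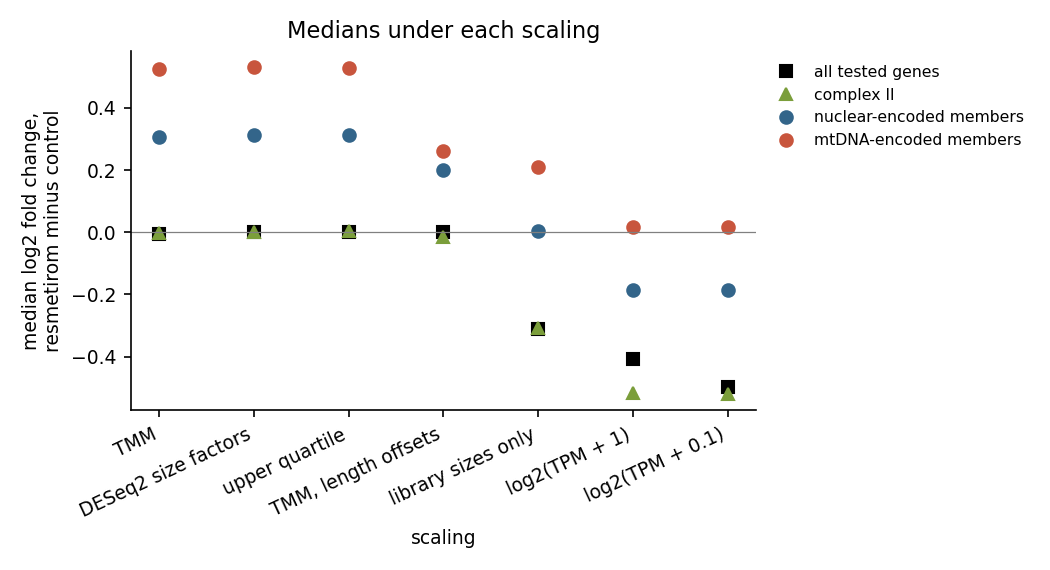
Median log2 fold change, resmetirom minus control (vertical axis), of all tested genes, complex II, nuclear-encoded and mtDNA-encoded members (symbols), under 7 scalings (horizontal axis). The member medians fall with the median of all genes; the nuclear-encoded median moves from 0.31 with TMM to -0.19 on both TPM scales and stays above the median of all genes in each scaling, while complex II stays near or below it.

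**Figure D2:**
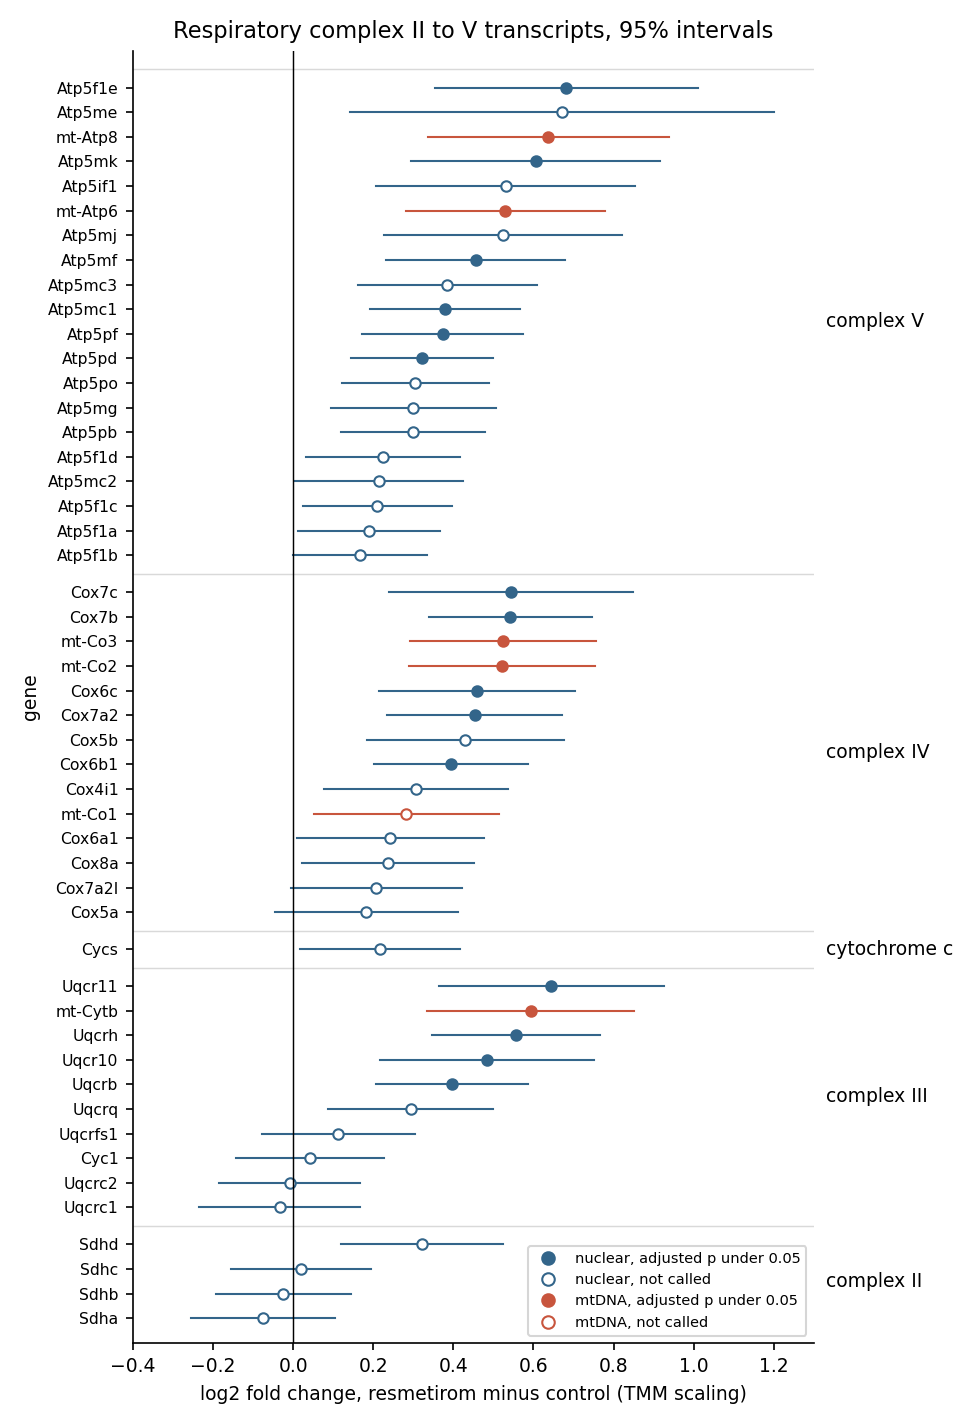
Log2 fold change on the TMM scale (horizontal axis; bars, 95% intervals) of the 49 tested genes, grouped by complex; filled points passed adjusted p under 0.05 and red points are mtDNA-encoded. The 20 filled points lie between 0.32 and 0.68 in complexes III, IV and V, and complex II has none; none of the 20 was called with library sizes alone or on the TPM scales.

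The 4 subunits of complex II gave 0 calls in either direction on the TMM scale and a median log2 fold change of -0.0025, close to that of all genes. Sdha, the flavoprotein that oxidises succinate (chromosome 13, positions 74322254 to 74350280 on GRCm38), had 451, 423, 401 and 401 CPM (counts scaled by TMM to a common depth) in the control libraries and 373, 383, 426 and 408 CPM in the resmetirom libraries. The groups overlapped, with resmetirom replicate 3 above 3 of the controls, and the log2 fold change of Sdha was -0.076 ± 0.082 (SE, adjusted p = 0.71, edgeR). Sdhb, the iron-sulfur subunit, had 159 to 172 CPM in the controls and 153 to 171 CPM with resmetirom, with a log2 fold change of -0.025 (SE 0.077) and an adjusted p of 0.92 in edgeR. Sdhc, a membrane anchor that helps bind ubiquinone, had a log2 fold change of 0.020 (adjusted p = 0.94, edgeR) with a 95% interval of -0.16 to 0.20. Sdhd, the other anchor, stood apart from the other 3 subunits. Its level was 195, 233, 209 and 207 CPM in the controls and 266, 275, 230 and 284 CPM with resmetirom, where resmetirom replicate 3 fell among the controls. The log2 fold change of Sdhd was 0.32 ± 0.093 (SE) and did not pass the threshold (adjusted p = 0.077, edgeR), although DESeq2 called it; the ratio of Sdhd to Sdha counts also overlapped between the groups.

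Complex III carries electrons from ubiquinol to cytochrome c. On the TMM scale 5 of its 10 genes were called higher and 0 lower, against 2.60% of all tested genes called higher. None of the 5 was called with library sizes alone or TPM. The calls fell on mt-Cytb and 4 of the 5 small accessory subunits, whose median log2 fold change was 0.48. The other 4 genes, which encode the large core proteins and the nuclear redox subunits, gave 0 calls and a median of 0.017. This split was not among the planned comparisons. The accessory genes have 584 to 1831 exonic bases and the other 4 have 1363 to 4135. With a trend on gene length taken out, the accessory median was 0.22 with 2 calls, and that of the other 4 was -0.018 with 0. Without control replicate 3 or 4, or without resmetirom replicate 3 or 4, the count for complex III on the TMM scale was 3 of 10.

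Uqcrh, the acidic hinge protein at the docking site of cytochrome c (chromosome 4, positions 116066965 to 116075071), had 102, 105, 116 and 92.3 CPM in the control libraries and 158, 141, 144 and 169 CPM in the resmetirom libraries. Every resmetirom library lay above every control library. On the TMM scale Uqcrh rose by 0.56 in log2 units (SE 0.097, adjusted p = 0.0054, edgeR) and stayed called without any 1 of the 8 libraries. Uqcr11, a small membrane subunit (chromosome 10, positions 80402997 to 80406830), had 55.6, 43.9, 50.5 and 38.8 CPM against 75.4, 62.5, 72.4 and 85.0 CPM, again without overlap. Its log2 fold change of 0.65 (SE 0.13; edgeR adjusted p = 0.013) was also called in all 8 of these refits. Uqcrb, which lies beside the ubiquinone site, had 102 to 112 CPM in the controls and 126 to 152 CPM with resmetirom, with a log2 fold change of 0.40 (SE 0.087) and an adjusted p of 0.021 in edgeR, called in 4 of 8 refits. Uqcr10, another small membrane subunit, had 42.6 to 54.2 CPM against 56.0 to 82.4 CPM, and its call (log2 fold change 0.48 ± 0.12 SE, adjusted p = 0.045, edgeR) held in 1 of 8 refits that left out a library. Uqcrq, the remaining accessory subunit and named after its values were seen, overlapped between the groups, with 160 to 189 CPM against 189 to 236 CPM, and was not called (adjusted p = 0.11, edgeR).

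The larger nuclear subunits of the same complex gave no calls. Uqcrc1, a core protein related to the mitochondrial processing peptidases (chromosome 9, positions 108936633 to 108949623), had 215, 221, 180 and 178 CPM in the controls and 191, 187, 198 and 199 CPM with resmetirom, which all fell inside the control range. Its log2 fold change was -0.033, with a 95% interval of -0.23 to 0.17. Uqcrc2, its partner core protein, had a log2 fold change of -0.0085 (interval -0.18 to 0.17). Cyc1, the cytochrome c1 heme protein, had 109 to 131 CPM against 120 to 131 CPM and a log2 fold change of 0.042 (interval -0.14 to 0.23). Uqcrfs1, the Rieske iron-sulfur protein, had a log2 fold change of 0.11 (interval -0.077 to 0.30). Rises of the size seen for Uqcrh lie outside all 4 intervals. Uqcrc1, Uqcrc2 and Uqcrfs1 were chosen for naming after their values were seen.

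Ratios between 2 genes of a library do not depend on how libraries are scaled, but a trend on gene length can still enter them. Exonic lengths were 1237 bases for Uqcrh and 4135 for Uqcrc1, and 1144 for mt-Cytb and 2154 for Cyc1. The part of length in the ratios was not tested. The log2 ratio of Uqcrh to Uqcrc1 counts was -1.07, -1.07, -0.63 and -0.95 in the control libraries and -0.28, -0.41, -0.46 and -0.24 in the resmetirom libraries. The groups did not overlap, and their means differed by 0.58. The log2 ratio of mt-Cytb to Cyc1 counts was 5.36, 5.66, 5.75 and 5.85 in the controls and 5.96, 6.39, 6.15 and 6.29 with resmetirom, with means 0.54 apart and no overlap. Of 8 such ratios computed, these were the 2 that separated the groups; they were formed after the fold changes of single genes were known, so they are descriptions with no test.

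**Figure D3:**
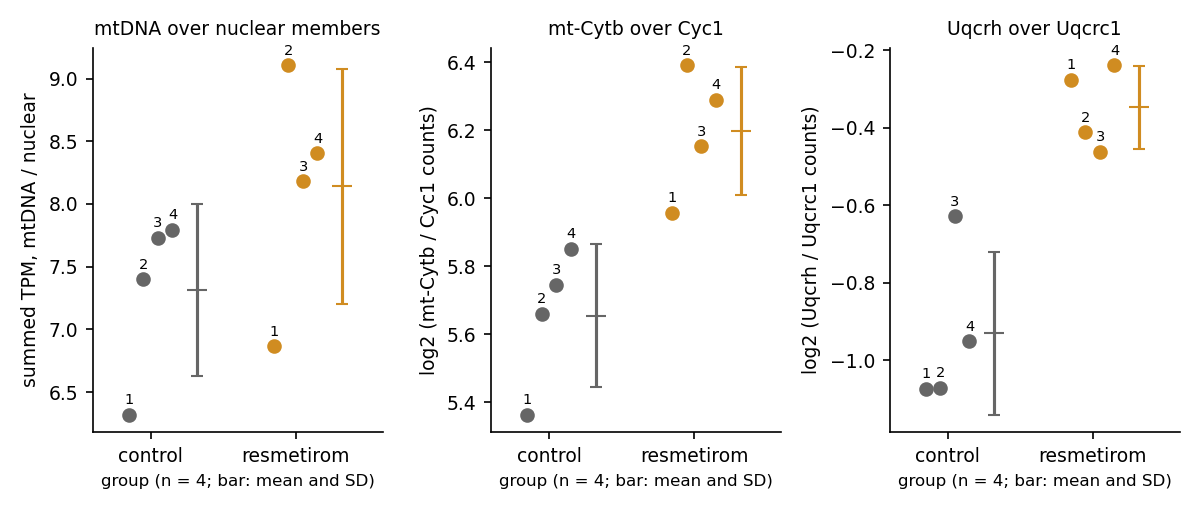
Ratios within each library (points, labelled by replicate; bars, mean and SD, n = 4) by group: summed TPM of mtDNA-encoded over nuclear-encoded members (left), log2 ratio of mt-Cytb to Cyc1 counts (middle) and of Uqcrh to Uqcrc1 counts (right). The left ratios overlap between groups (6.32 to 7.80 against 6.87 to 9.11), and the other 2 do not. No library scaling enters, and a trend on gene length was not taken out of the ratios.

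Cytochrome c itself, the soluble carrier between complexes III and IV, is encoded by Cycs in somatic tissues. Cycs had 185, 212, 202 and 207 CPM in the control libraries and 222, 221, 224 and 270 CPM in the resmetirom libraries. The groups did not overlap, but the log2 fold change of 0.22 ± 0.092 (SE) was not called (adjusted p = 0.24, edgeR), and on library sizes alone and TPM its sign turned.

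In complex IV, cytochrome c oxidase, 7 of 14 tested genes were called higher and 0 lower on the TMM scale. The share of all tested genes called higher was 2.60%. The median log2 fold change of complex IV was 0.41, and no gene was called on library sizes alone or TPM. The count ran from 2 to 8 when a library was left out: it was 3 and 2 without control replicates 2 and 4, and 4, 4 and 3 without resmetirom replicates 1, 3 and 4. Of the 3 mtDNA-encoded catalytic subunits, mt-Co2 and mt-Co3 were called. mt-Co2, which holds the CuA site that accepts electrons from cytochrome c (mtDNA positions 7013 to 7696), had 7425, 7567, 8454 and 7945 CPM in the controls and 9449, 11365, 11777 and 12484 CPM with resmetirom. The 4 resmetirom libraries lay above the controls, replicate 1 lowest, and the log2 fold change of mt-Co2 was 0.52 ± 0.11 (SE, adjusted p = 0.014, edgeR). mt-Co3, the third core subunit, gave 8967 to 10497 CPM against 12423 to 15963 CPM with a log2 fold change of 0.52 (SE 0.11) and an adjusted p of 0.014 in edgeR. mt-Co1, which holds the site where oxygen is reduced, was the most abundant transcript of all members, with a mean of 27665 TPM over the 8 libraries. It had 21471, 25508, 27505 and 23979 CPM in the controls and 27394, 31131, 29621 and 31639 CPM with resmetirom. Control replicate 3 and resmetirom replicate 1 overlapped narrowly, and mt-Co1 was not called (log2 fold change 0.28 ± 0.11 SE, adjusted p = 0.18, edgeR). The log2 ratio of mt-Co2 to mt-Co1 counts touched at the edges, from -1.75 to -1.53 in the controls and from -1.54 to -1.33 with resmetirom.

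The 11 tested nuclear genes of complex IV gave 5 calls, all of small subunits that surround the catalytic core. Cox7b, a membrane subunit (chromosome X, positions 106015700 to 106022450), had 151, 135, 166 and 131 CPM in the controls and 220, 210, 198 and 219 CPM with resmetirom. No libraries overlapped, and its log2 fold change of 0.54 (SE 0.093; edgeR adjusted p = 0.0050) was the smallest p among all members and held in all 8 refits without a library. Cox7c had a log2 fold change of 0.54 (adjusted p = 0.049, edgeR), with controls from 75.1 to 115 CPM and resmetirom libraries from 116 to 142 CPM, so that the highest control and the lowest resmetirom library nearly met. Cox6c (0.46), Cox7a2 (0.45) and Cox6b1 (0.39, the subunit that faces cytochrome c) had adjusted p-values of 0.039, 0.022 and 0.024 in the edgeR fit. The calls of Cox7c, Cox6c, Cox7a2 and Cox6b1 held in 2, 3, 4 and 4 of 8 refits without a library, and the last 3 were lost with a replicate block. Exons of Cox6c share 250 bases with Vps13b on the other strand, and Vps13b had 24.8% as many counts as Cox6c, and how strand was handled is not known from the labels. Cox4i1, the largest nuclear subunit and the one that binds ATP, had 228 to 285 CPM against 265 to 346 CPM. It overlapped between the groups through resmetirom replicate 2 and was not called (log2 fold change 0.31 ± 0.11 SE, adjusted p = 0.14, edgeR).

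Complex IV has subunit pairs in which 1 gene serves liver and the other serves heart, skeletal muscle, lung or testis. The liver or ubiquitous forms carried nearly all counts in these libraries. Cox6a1 stood at 160 ± 19.5 CPM in the controls and 189 ± 18.4 CPM with resmetirom (SD, n = 4) and was not called (log2 fold change 0.24, adjusted p = 0.26, edgeR), while its muscle partner Cox6a2 had 2 counts in each group. Cox8a, at 92.6 ± 5.97 and 109 ± 12.3 CPM (SD, n = 4), was not called (log2 fold change 0.24, adjusted p = 0.23, edgeR), and Cox8b and Cox8c had 0 counts in all 8 libraries. Cox4i2, the lung form, had 10 counts in the controls and 8 with resmetirom, and Cox6b2, the testis form, had 40 and 37. Cox7a1, the muscle form of Cox7a2, had 28 and 38 counts, and Cox7b2 had none. Cox7a2l, which joins complexes III and IV into supercomplexes, had 97.7 to 119 CPM against 106 to 132 CPM and was not called (log2 fold change 0.21, adjusted p = 0.29, edgeR). With totals this low none of the second forms was tested. Over the 8 libraries Cox6a2, Cox7a1, Cox4i2 and Cox6b2 had 4, 66, 18 and 77 counts. Their partners Cox6a1, Cox7a2, Cox4i1 and Cox6b1 had 25441, 19241, 41565 and 18178. The second forms thus stayed a very small part of the counts in both groups, and a change within that part was not tested. Ndufa4, once counted in complex I and now in complex IV, has no symbol in the rule; its log2 fold change was 0.21 (adjusted p = 0.23, edgeR).

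In complex V, 8 of 20 tested genes were called higher and 0 lower on the TMM scale, against 2.60% of all tested genes called higher. The complex V median log2 fold change was 0.38, and no gene was called on library sizes alone or TPM. All 20 had a fold change above 0 on the TMM scale, from 0.17 to 0.68. In 15 of the 20 all 4 resmetirom libraries lay above all 4 control libraries, which held for 6.32% of all tested genes. The count was 0 without control replicate 4 and 0 without resmetirom replicate 4. The complex V medians in these refits were 0.36 and 0.32, and 182 and 208 of all tested genes were called higher. The complex V count was 2, 4, 3 and 4 without control replicates 2 and 3 and resmetirom replicates 1 and 3. DESeq2 called 13.

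In the F1 head, which makes ATP, 1 of 5 genes was called, Atp5f1e. It encodes the small epsilon subunit at the foot of the central stalk (chromosome 2, positions 174461072 to 174464105). Atp5f1e had 64.0, 51.1, 58.6 and 42.4 CPM in the controls and 94.3, 65.5, 97.1 and 89.9 CPM with resmetirom. Resmetirom replicate 2 lay just above the highest control. Its log2 fold change of 0.68 (SE 0.15; edgeR adjusted p = 0.022) was the largest of the 49, and the call held in 3 of 8 refits without a library. Atp5f1b, the catalytic beta subunit and the most abundant nuclear-encoded member at a mean of 947 TPM, had 1124, 1099, 1056 and 1049 CPM against 1239, 1168, 1226 and 1224 CPM. The groups did not overlap, yet the log2 fold change of 0.17 ± 0.077 (SE) was small and not called (adjusted p = 0.29, edgeR). Atp5f1b was named after its values were seen.

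The c ring, whose rotation drives the head, is built of 1 protein made from 3 genes that differ in their import signal. Atp5mc1 rose on the TMM scale, from 92.8, 105, 98.3 and 101 CPM to 126, 122, 124 and 143 CPM (log2 fold change 0.38 ± 0.086 SE, adjusted p = 0.025, edgeR), a call that held in 4 of 8 refits without a library. Atp5mc3, the most abundant of the 3, was as much higher (0.39 ± 0.10 SE) with no overlap between groups but did not pass the threshold (adjusted p = 0.055, edgeR), and Atp5mc2 had a log2 fold change of 0.21 (adjusted p = 0.27, edgeR). Atp5mc1, Atp5mc2 and Atp5mc3 made up 27.3%, 13.6% and 59.1% of the c subunit TPM in the controls and 27.8%, 12.2% and 60.0% with resmetirom (means, n = 4). The ranges of all 3 shares overlapped between the groups.

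In the peripheral stalk, which holds the head still, 2 of 4 tested genes were called. Atp5pd, the d subunit (chromosome 11, positions 115415689 to 115419962), had 170, 174, 173 and 156 CPM in the controls and 204, 202, 204 and 231 CPM with resmetirom, without overlap. Its log2 fold change of 0.32 (SE 0.082; edgeR adjusted p = 0.045) was called in 0 of 8 refits without a library. Atp5pf, the F6 coupling subunit, was higher by 0.37 in log2 units (SE 0.092, adjusted p = 0.039, edgeR). It shares 397 exonic bases with Gabpa on the other strand, whose counts came to 31.7% of those of Atp5pf. Among the 5 small membrane subunits, Atp5mk (0.61 ± 0.14 SE, adjusted p = 0.031) and Atp5mf (0.46 ± 0.10 SE, adjusted p = 0.024) were called by edgeR. Without a library the calls of Atp5pf and Atp5mk held in 2 of 8 refits and that of Atp5mf in 4. Atp5mk had 32.4 to 51.7 CPM in the controls and 53.7 to 68.6 CPM with resmetirom. Atp5if1, which blocks the synthase from running backward, had 14.0, 11.3, 15.0 and 10.2 CPM against 21.1, 16.4, 17.4 and 18.2 CPM. All resmetirom libraries were higher, and the log2 fold change of 0.53 ± 0.15 (SE) missed the threshold (adjusted p = 0.067, edgeR).

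Both mtDNA-encoded genes of complex V, for subunit a of the proton channel and its small neighbour A6L, rose on the TMM scale. mt-Atp6 had 5484, 6363, 6906 and 6408 CPM in the controls and 7577, 9404, 9199 and 10153 CPM with resmetirom (log2 fold change 0.53 ± 0.11 SE, adjusted p = 0.019, edgeR). mt-Atp8 had 18.8 to 21.6 CPM against 24.0, 30.6, 38.8 and 32.8 CPM (0.64 ± 0.14 SE, adjusted p = 0.020, edgeR). No libraries overlapped for either gene. The 2 genes share 43 bases on 1 transcript, yet mt-Atp8 received 3673 counts in all and mt-Atp6 received 1098114, and the labels do not state how reads in the shared stretch were assigned; its part in the mt-Atp8 level was not tested. Without a library the mt-Atp6 call held in 4 of 8 refits and the mt-Atp8 call in 5.

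By genome of origin, 5 of 6 mtDNA-encoded and 15 of 43 nuclear-encoded genes were called higher on the TMM scale and 0 of either lower, against 2.60% of all genes; none was higher with library sizes alone or TPM. The mtDNA-encoded count was 2 and 3 without control or resmetirom replicate 4. The nuclear-encoded count was 5, 8 and 3 without control replicates 2, 3 and 4, and 6, 7 and 3 without resmetirom replicates 1, 3 and 4. The medians were 0.53 and 0.31. With a trend on gene length taken out, 0 of 6 mtDNA-encoded and 10 of 43 nuclear-encoded genes were called higher (background 2.46%), with medians of 0.26 and 0.20. mt-Cytb, the only mtDNA-encoded subunit of complex III (mtDNA positions 14145 to 15288), had 5386, 6162, 6567 and 6291 CPM in the controls and 7443, 10045, 9077 and 10258 CPM with resmetirom. The groups did not overlap, replicate 1 was the lowest of each, and mt-Cytb was 0.59 log2 units higher (SE 0.12, adjusted p = 0.013, edgeR), a call that held without any 1 library but not with the length trend taken out. In each library the 6 mtDNA-encoded transcripts, which leave the organelle's promoters on long joint precursors, outweighed the 43 nuclear ones. Their summed TPM over that of the nuclear members was 6.32, 7.40, 7.73 and 7.80 in the controls and 6.87, 9.11, 8.18 and 8.41 with resmetirom. Replicate 1 was the lowest in each group and the groups overlapped; the mean log2 ratio was 0.15 higher with resmetirom, and 0.084 to 0.23 higher when a library was left out. An unequal change of the 2 genomes was thus not separated from the spread between libraries. The share of all counts taken by the 6 genes was 5.29 to 6.83% in the controls and 5.92 to 7.08% with resmetirom.

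**Figure D4:**
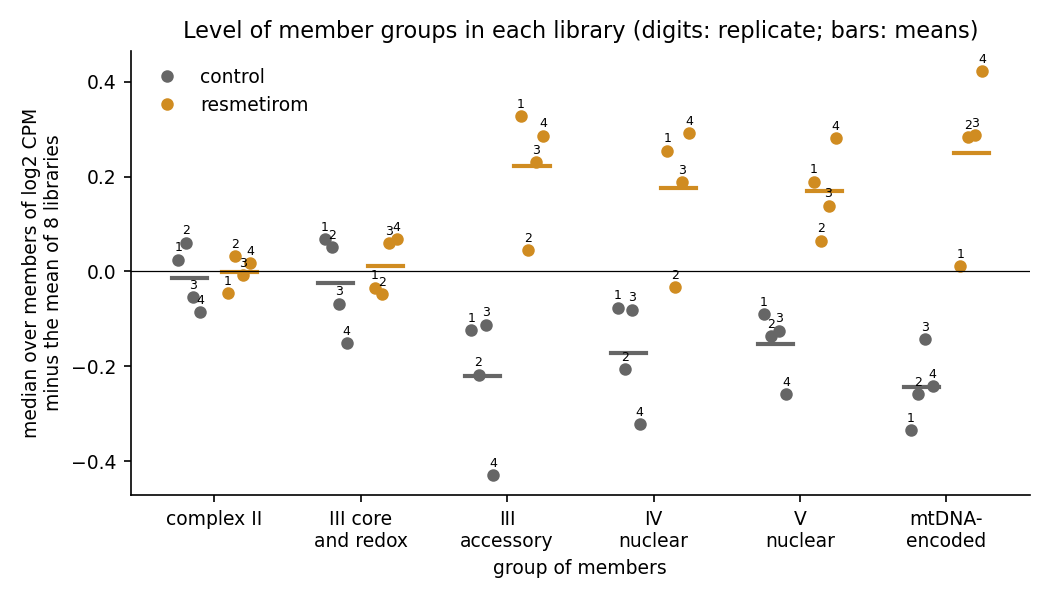
Median over the members of a group of log2 CPM (TMM scale) minus the gene's mean over the 8 libraries (vertical axis), for 6 groups of members (horizontal axis); points are libraries labelled by replicate and bars are group means. Complex II and the core and redox genes of complex III overlap between groups, and the 4 other groups do not; with library sizes alone or TPM none of their genes was called higher.

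Within the resmetirom group the libraries did not rank alike for both genomes. The nuclear members of complex IV, as the median of centred log2 CPM, stood at 0.25, -0.033, 0.19 and 0.29 in resmetirom replicates 1 to 4. The mtDNA-encoded members stood at 0.011, 0.28, 0.29 and 0.42. Replicate 1 was therefore among the higher ones for nuclear genes of complex IV and the lowest for mtDNA genes. Replicate 2 was the lowest for nuclear genes of complex IV. Over all nuclear-encoded members the values were 0.18, 0.0069, 0.17 and 0.28. Complex II, also nuclear, ranked otherwise, at -0.045, 0.033, -0.0073 and 0.017. Replicate 1 is also the library whose TMM factor resembled the controls. In the controls, replicate 4 was lowest for the nuclear genes of complex IV, at -0.32, and replicate 1 for mtDNA genes, at -0.34.

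Short genes carried the larger fold changes. Across the 43 nuclear-encoded members, Spearman's rho of log2 fold change with exonic length was -0.47, and it was -0.60 over the 6 mtDNA-encoded ones and -0.11 over 12187 tested genes. These correlations are across genes that share libraries and are given without a p. The median exonic length was 1831 bases for nuclear-encoded members, 734 for mtDNA-encoded members and 4470 for all genes. When a trend on length was taken out within each library, 10 members were called higher and 0 lower (backgrounds 2.46% and 2.08%), with a median of 0.22, and 0 of the 6 mtDNA-encoded genes. Of those 10 nuclear genes, 9 were among the 20. Exonic length joined all annotated exons of a gene and can exceed the length of the liver transcript. Uqcrh, Uqcr11 and Cox7b (1237, 641 and 1214 bases) stayed called with this trend taken out, and mt-Cytb and mt-Co2 did not. Also kept were Cox6c, Atp5mf, Atp5mk, Atp5pf, Atp5mc1 and Atp5f1e, at 1756 to 4912 bases. Uqcr10, Cox6b1, Uqcrb, Cox7a2, Cox7c and Atp5pd, at 584 to 1465 bases, were lost. The part of annotated length in which calls stayed was not tested.

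**Figure D5:**
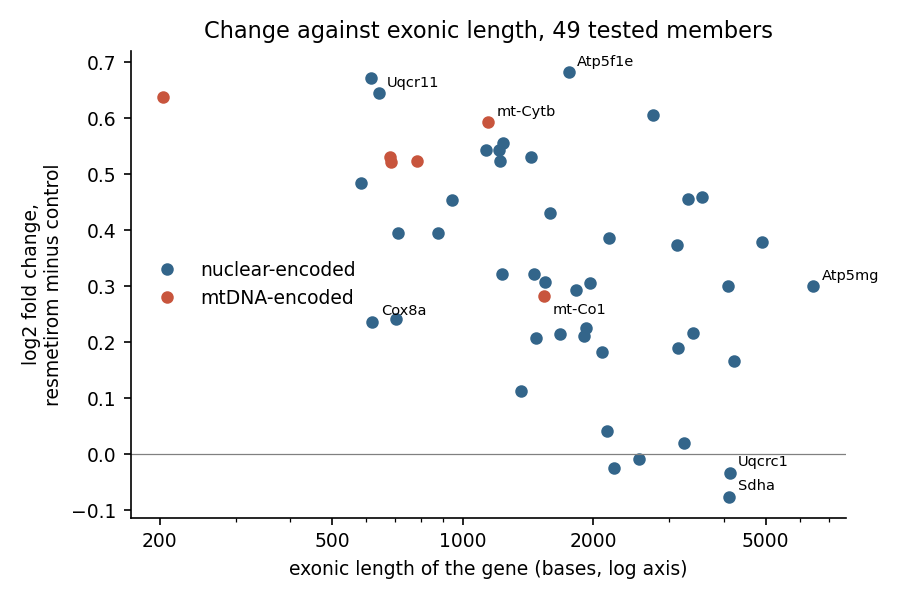
Log2 fold change on the TMM scale (vertical axis) against exonic length in bases (horizontal log axis) for 43 nuclear-encoded (blue) and 6 mtDNA-encoded (red) members. Larger changes lie at shorter lengths (rho -0.47 for the nuclear members), and Sdha and Uqcrc1, at 4126 and 4135 bases, lie near 0; with library sizes alone or TPM no member was called higher.

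Other genes of the respiratory system were compared in the same fit. In complex I, whose genes fall outside the 58, 4 of 7 mtDNA-encoded genes (mt-Nd3, mt-Nd4l, mt-Nd5 and mt-Nd6) and 3 of 36 tested nuclear genes (Ndufb11, Ndufa6 and Ndufc2) were called higher and 0 lower on the TMM scale, against 2.60% of all tested genes, with medians of 0.57 and 0.27. Among assembly factors of complexes II to V 1 of 38 was called, Lyrm7, a chaperone of the Rieske protein of complex III. Its level was 2.36 ± 0.36 CPM in the controls and 4.66 ± 0.53 CPM with resmetirom (SD, n = 4). The log2 fold change of Lyrm7 was 0.98 ± 0.22 (SE, adjusted p = 0.022, edgeR). Among regulators of mitochondrial biogenesis 1 of 21 was called, Esrrg, an estrogen-related receptor, at 2.75 ± 1.11 and 8.26 ± 2.42 CPM (SD, n = 4; 1.59 ± 0.33 SE, adjusted p = 0.019, edgeR). Of 20 tested genes for other mitochondrial proteins (carriers, import, chaperones and citric acid cycle enzymes) 1 was called, Idh3a of the citric acid cycle (0.63 ± 0.12 SE, adjusted p = 0.0077, edgeR). These single calls are 2.63%, 4.76% and 5% of the 3 lists, near the background of 2.60%. The medians of these 3 lists were 0.059, 0.081 and 0.15, lower than the 0.32 of the 49 genes; this difference was not tested.

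Motif matches were counted in 41 RefSeq promoter windows matched to 38 of the 58 genes. The NRF1 letters occurred in 11 windows (26.8%) and in 4.60% of all 32851 windows of that length, and the ETS letters in 13 (31.7%) and in 8.86%. Of the matched and tested genes, the NRF1 letters were in 1 of 13 called and 10 of 21 not called, and the ETS letters in 7 of 13 and 6 of 21. Letters for YY1 (AAGATGGC) were found in 3 windows (7.32%, and 2.75% of all windows) and for the estrogen-related receptors (TCAAGGTCA) in 2 (4.88%, and 0.423% of all). Letters for a thyroid hormone receptor direct repeat (AGGTCA, 4 bases of any kind, AGGTCA) were found in 0; they occur in 5 of all 32851 windows (0.0152%), too few for 41 windows to show anything. Both strands were searched for each. These counts describe letters in the windows and were not tested, and the Atp5pd window shows that both motifs can lie in 1 promoter.

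Summed hepatocyte markers (6 of 6 detected: Alb, Apoa1, Ttr, Apob, Serpina1a, Fgb) were 73550 to 84107 CPM in the controls and 91170 to 98390 CPM with resmetirom on the TMM scale, and their part in the higher levels of complex III to V genes was not tested. Of these 6, 3 separated the groups and 1 was called, Serpina1a (log2 fold change 0.50, adjusted p = 0.017, edgeR). Of all tested genes, 6.32% had all 4 resmetirom libraries above all 4 controls and 2.60% were called higher. Alb, which makes up most of the sum, had a log2 fold change of 0.33 (adjusted p = 0.081, edgeR), while Apob and Ttr were at 0.057 and -0.088. Muscle, a tissue rich in these transcripts, left nearly no trace: of 8 markers Acta1, Tnnt3 and Myh4 had 0 counts, and the sums were 0.093 to 0.41 and 0.32 to 0.68 CPM. Of 3 brown adipocyte markers Ucp1 had 1 count in all. Their sums were 27.4 to 165 CPM in the controls and 7.61 to 22.6 CPM with resmetirom. These sums rest nearly wholly on Elovl3, which was not called (log2 fold change -2.20, adjusted p = 0.21, edgeR). Of 5 adipocyte markers Adipoq and Lep had 0 counts, and Plin1 had 3 in the controls and 0 with resmetirom. The sums were 15.8 to 20.8 CPM in the controls and 6.04 to 10.1 CPM with resmetirom. They were nearly all Fabp4, which was called lower on the TMM scale (log2 fold change -0.996, adjusted p = 0.0041, edgeR). Sums of Kupffer cell (432 to 666 against 271 to 677 CPM), stellate cell (347 to 558 against 360 to 621 CPM), endothelial (179 to 244 against 157 to 221 CPM), cholangiocyte (28.3 to 53.0 against 40.5 to 71.6 CPM), lymphocyte (14.5 to 22.4 against 13.0 to 27.2 CPM) and erythroid markers (94.5 to 172 against 104 to 235 CPM) overlapped between the groups. Within the lists whose sums overlapped, 2 genes were called lower on the TMM scale. Alas2 of the erythroid list had a log2 fold change of -2.52 (adjusted p = 0.0016, edgeR), beside Hba-a1 at 0.78 and Hbb-bs at 0.74, not called. Col3a1 of the stellate cell list was at -1.06 (adjusted p = 0.047, edgeR). Of 4 pancreatic acinar markers Pnlip had 0 counts, and the sums did not overlap, at 0.049 to 0.24 CPM in the controls and 0.71 to 1.01 CPM with resmetirom. The only one tested, Cela2a, was called higher with 8 counts in the controls and 57 with resmetirom (log2 fold change 3.17, adjusted p = 0.0055, edgeR).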

How the data were processed

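Per the labels' protocols, liver mRNA was captured on oligo(dT) beads and sequenced. Per the submitters' processing notes, the build was mm10 and the tools were HISAT2 2.1.0 and Bowtie2 2.2.8, fastp 0.18.0, RSEM, StringTie 1.3.1, edgeR and DESeq2. Their roles, strand handling and the treatment of multi-mapped reads, which bear on overlapping and mtDNA genes, are not stated. The authors deposited whole-number counts and TPM per library, and for each gene a log2 fold change with its p-value and FDR, per the file headers; 0 per-sample columns were left unmatched. TPM sums to a fixed total, so it moves when abundant genes change.

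Counts of 4 control and 4 resmetirom libraries entered edgeR 4.0.16 under R 4.3.3 (filterByExpr, TMM, robust quasi-likelihood, Benjamini-Hochberg over 12207 genes, threshold 0.05), with limma 3.58.1 and DESeq2 1.42.0 as alternatives. Levels are TMM-scaled CPM, and each SE is the fold change divided by the square root of F. Libraries of a group differed by more than counting error (chi-square per degree of freedom at least 13.2). This value was 13.2 to 60.2 between controls and 24.3 to 50.1 between resmetirom replicates 2, 3 and 4. Between resmetirom replicate 1 and the others of its group it was 91.8 to 196. Positions and exonic lengths came from GENCODE M21 on GRCm38, which held 99.4% of the identifiers. The procedure was tested on simulated data. The members and lists were chosen with earlier results of these data known. Named genes were every called member, all mtDNA-encoded ones, the smallest p and highest TPM of each complex, isoform sets, complex II, Cyc1, Cycs, the extremes, and the called genes with the 4 smallest p of each other list. Alternatives were other scalings, tools and filters, TPM, length offsets, a replicate block and leaving out each library.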

Additional observations from a re-analysis of the deposited data

Results flagged for a closer look

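In 5 of the 104 groups of 4 libraries examined (49 tested members and 3 summary ratios or shares in each group), 1 library stood far from the other 3, and chance alone gives such a gap in about 1 in 20 groups. Cox5a, a subunit of complex IV, was low in resmetirom replicate 2 at 88.5 CPM, against 115 to 120 CPM in the other resmetirom libraries. Cox6a1 was low in the same library at 161.8 CPM, against 196 to 201 CPM. In resmetirom replicate 4, Atp5pd was high at 231 CPM against 202 to 204 CPM, and Cycs was high at 270.2 CPM against 221 to 224 CPM. Atp5po, a subunit of the peripheral stalk of complex V, was low in control replicate 4 at 144 CPM, against 164 to 166 CPM in the other controls. Of these genes Atp5pd was called higher with resmetirom on the TMM scale and the call was lost without any 1 of the 8 libraries.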

How the results depend on the processing

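The calls of these genes, and for part of them the sign, depended on the scaling more than on the tool or the filter. On the TMM scale, DESeq2 size factors, upper-quartile factors, leaving the 20 most abundant genes out of the scaling, limma-voom, no low-count filter, a minimum of 1 CPM in 4 samples, the fit without robust estimation and, added after the data were seen, scaling without the members, mtDNA and Mup genes, 16 to 21 members were called higher and 0 lower. With library sizes alone 151 of all tested genes were called higher and 1961 lower; of the members 0 were higher and 3 lower (2 in complex II, 1 in complex III), and the medians were 0.019 over all, 0.21 over mtDNA-encoded and 0.0033 over nuclear-encoded members. On log2(TPM + 1) and log2(TPM + 0.1), 127 and 128 genes were higher and 4635 and 4593 lower; of the members 0 were higher and 7 lower (3 in complex II, 4 in complex III), and the medians were -0.18 over all, 0.018 over mtDNA-encoded and -0.19 over nuclear-encoded members on both. With length offsets 10 members were higher (0 mtDNA-encoded, 2 in complex III, 2 in complex IV), with medians of 0.22, 0.26 and 0.20. DESeq2 called 532 genes higher and 411 lower, with 1 higher in complex II and 13 in complex V.

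Leaving out 1 library gave 182 to 313 genes higher and 149 to 238 lower, 5 to 21 members higher, 2 to 5 of the mtDNA-encoded, 3 to 17 of the nuclear-encoded, 0 to 1 in complex II, 3 to 5 in complex III, 2 to 8 in complex IV and 0 to 8 in complex V; 0 members were lower in each. The median over members then ran from 0.28 to 0.40. With the replicate block, 13 members were higher, 12 of them among the 20 (8 nuclear-encoded, 3 in complex III, 4 in complex IV). The numbers were not taken to pair the libraries, since deviations of same-numbered libraries correlated at -0.33, 0.18, -0.19 and -0.061.

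Of the 49 members, 45 lay above and 4 below 0 on the TMM scale, 28 and 21 with library sizes alone, 14 and 35 on both TPM scales, and 42 and 7 with length offsets. Among the genes named here, those that changed sign against the TMM fit were, on both TPM scales, Sdhc -0.51, Sdhd -0.19, Cyc1 -0.47, Uqcr10 -0.030, Uqcrb -0.11, Uqcrfs1 -0.39, Uqcrq -0.22, mt-Co1 -0.22, Cox4i1 -0.20, Cox5a -0.33, Cox6a1 -0.26, Cox6b1 -0.11, Cox6c -0.049, Cox7a2 -0.061, Cox7a2l -0.30, Cox8a -0.27, Atp5f1b -0.34, Atp5mc1 -0.13, Atp5mc2 -0.31, Atp5mc3 -0.13, Atp5mf -0.0027 and -0.0029, Atp5pd -0.18, Atp5pf -0.13, Atp5po -0.20, Cycs -0.29, Ndufb11 -0.033, Ndufa6 -0.11, Ndufc2 -0.17 and Ndufa4 -0.29. With library sizes alone they were Sdhc -0.28, Cyc1 -0.27, Uqcrfs1 -0.19, Uqcrq -0.011, mt-Co1 -0.032, Cox5a -0.12, Cox6a1 -0.061, Cox7a2l -0.090, Cox8a -0.056, Atp5f1b -0.14, Atp5mc2 -0.084, Cycs -0.093 and Ndufa4 -0.098, and with length offsets Uqcrfs1 -0.020, Cox6a1 -0.0068 and Cox8a -0.037. Values near 0 also changed sign when a library was left out: Sdhb ran from -0.049 to 0.0062, Sdhc ran from -0.017 to 0.061, Cyc1 ran from -0.0066 to 0.081, Uqcrc1 ran from -0.082 to 0.021 and Uqcrc2 ran from -0.045 to 0.032. The cause of the shift between scales was not tested. In simulated counts of this comparison (12125 genes), some genes were changed by known folds. The test recovered 2% at the smallest simulated fold, which is about that of the median member. It recovered 20.4% of genes changed 1.5-fold and 72% at 2-fold. The changed genes were drawn at random from expressed genes, not from the members, so these rates cannot be carried over to the members. On the TMM scale 20 of the 49 members were called higher, and a member that was not called may still differ.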
